A study of Homo sapiens with 6 samples.

Results

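γH2AX peaks were compared between pemetrexed and cisplatin in UNG wild-type (WT) DLD1 cells, an established human colorectal cancer line. All rows of the 2 deposited WT peak lists were used: 924 peaks after pemetrexed and 1807 after cisplatin, 2731 of the 12579 peaks in the 4 lists at hand. The other lists came from UNG knockout (KO, UNG-/-) DLD1 cells, with 5278 peaks after pemetrexed and 4570 after cisplatin. Each of the 6 groups of the study (UNG+/+ or UNG-/-, each untreated, pemetrexed-treated or cisplatin-treated) had 1 library, made by chromatin immunoprecipitation and sequencing (ChIP-seq) with an antibody to γH2AX. The untreated libraries were not analysed here. The labels used here state no dose, no treatment time and not whether the knockout line is a single clone.

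γH2AX is the histone variant H2AX phosphorylated at its tail by the kinases ATM, ATR and DNA-PK. It spreads over chromatin around DNA double strand breaks and also marks stalled replication forks. Pemetrexed is an antifolate that inhibits thymidylate synthase, so that cells run short of thymidine nucleotides and place uracil in their DNA. UNG, the uracil DNA glycosylase present in WT cells, cuts that uracil out and starts base excision repair. Cisplatin is a platinum compound that forms crosslinks, mostly between neighbouring purines, which block replication and transcription. The comparison asks where γH2AX was found after each kind of damage in cells that have UNG.

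The lists give a chromosome, a start and an end per peak (hg18) and no height, score or read count, so the read depth of either library is unknown. With 1 library per drug there is no replicate check and no p-value is given. The 95% intervals cover counting error between lists only and treat peaks as independent, and a difference between drugs cannot be told apart from a difference between single libraries. Positions are printed as listed. The labels do not say whether starts count from 0 or 1. No gene annotation of this build was used, so peaks are described by place and not by gene.

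The pemetrexed list was the shorter one and its peaks were narrower. Its peak number was 0.511 times that of the cisplatin list (95% exact interval 0.472 to 0.554), and it covered 0.559 Mb against 1.215 Mb, or 0.0196% and 0.0430% of the 2825 Mb between the first and last covered positions of the chromosomes. Median widths were 585 bp after pemetrexed (95% interval 580 to 588) and 623 bp after cisplatin (617 to 630). The cisplatin median was the larger one on 22 of 22 autosomes, where medians ran from 571.5 to 603 bp after pemetrexed and from 591 to 672 bp after cisplatin. With peaks of at least 600 bp alone the ratio of peak numbers was 0.307 (0.271 to 0.348), since this filter kept 329 placed pemetrexed and 1070 placed cisplatin peaks.

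The widths differed mainly in their spread upwards. The narrowest peak was 368 bp after pemetrexed and 308 bp after cisplatin. Beyond this single peak the pemetrexed list was the narrower one at the low end too. Its 5th percentile was 453 bp against 489.3 bp after cisplatin, and its first quartile 548 bp against 571 bp. Peaks of 550 bp up to below 600 bp made up 38.2% of the pemetrexed list (353 peaks, 95% exact binomial interval 35.1 to 41.4%) and 24.02% of the cisplatin list (434 peaks, 22.1 to 26.1%). Peaks of at least 800 bp made up 5.84% after pemetrexed (54 peaks, 4.42 to 7.56%) and 16.4% after cisplatin (297 peaks, 14.8 to 18.2%). Those of at least 1000 bp made up 1.08% (10 peaks, 0.520 to 1.98%) and 4.59% (83 peaks, 3.68 to 5.66%). The 99th percentile was 1043 bp after pemetrexed and 1360 bp after cisplatin.

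**Figure D1:**
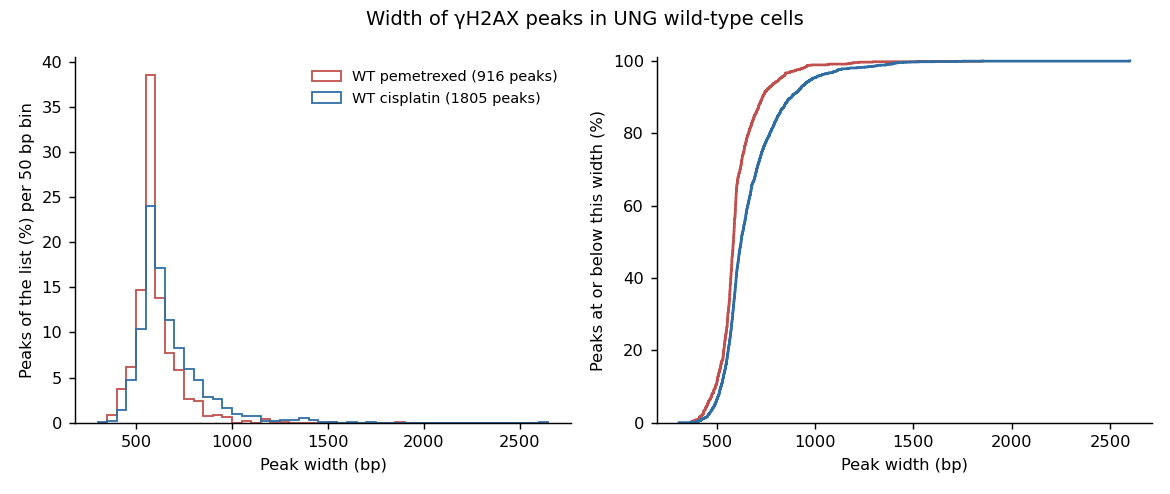
Width of the placed peaks of both WT lists, as the percent of a list's peaks per 50 bp bin (left) and the percent at or below each width (right), both axes linear with width in bp. The pemetrexed list has a taller column just below 600 bp, and the cisplatin list has the longer tail towards 1000 bp and beyond.

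Of the 10 pemetrexed peaks of at least 1000 bp, 7 had another pemetrexed peak within 100 kb, and 4 belonged to 1 group of peaks on chromosome 16. The other six were on chromosomes 2, 6, 10 (2 peaks), 15 and Y. The 83 cisplatin peaks of that width were spread over 20 chromosomes, and 33 of them (39.8%) had another cisplatin peak within 100 kb. Of all placed peaks, 12.55% after pemetrexed and 30.03% after cisplatin had another peak of their list within 100 kb. Cisplatin peaks near a chromosome end (up to 5 Mb from the outermost position covered by any list) were wider, with a median of 676 bp (653 to 696), than those further in, with 616 bp (610 to 623). After pemetrexed the same medians were 582 bp (573 to 596) and 585 bp (579 to 588).

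The 5 widest pemetrexed peaks were 1851 bp at chr10:39121794-39123645, 1518 bp at chr16:44945424-44946942, 1293 bp at chr2:91682774-91684067, 1222 bp at chr16:44958306-44959528 and 1196 bp at chr10:39168181-39169377. From general knowledge of the chromosome map, and not from an annotation used here, all of these places lie beside the centromere of their chromosome, in or next to blocks of repeated satellite DNA. The chromosome 10 pair had KO cisplatin peaks 9.43 and 3.97 kb away, while the nearest WT cisplatin peaks were 7817 and 7864 kb away. The 5 widest cisplatin peaks were 2601 bp at chr19:18473692-18476293, 1748 bp at chr17:15794733-15796481, 1718 bp at chr11:1474961-1476679, 1608 bp at chr2:46543801-46545409 and 1528 bp at chr21:10157646-10159174. The first of these met a KO pemetrexed peak, and KO cisplatin peaks lay 0.240 kb from it and 1.30 kb from the chromosome 11 peak. By the same general knowledge the chromosome 21 peak lies beside a centromere too. The WT pemetrexed peak nearest to any of these 5 lay 243.5 kb away, from the chromosome 2 peak.

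Pemetrexed peaks were spread more evenly over the chromosomes than cisplatin peaks. On the 22 autosomes the density ran from 1.95 pemetrexed peaks per 10 Mb on chromosome 4 to 6.73 on chromosome 22, a factor of 3.46. For cisplatin it ran from 2.78 on chromosome 18 to 19.4 on chromosome 19, a factor of 6.98. Chromosomes 17 and 19, both rich in genes, carried 18.2 and 19.4 cisplatin peaks per 10 Mb but 4.59 and 4.73 pemetrexed peaks. The densities of the lists correlated over the 22 autosomes with Pearson's r of 0.66 and Spearman's rho of 0.66, given as a description, since the points share the same libraries.

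Of the 24 chromosomes, 5 (20.8%) held a share of the pemetrexed list that was over 1.5 times the share of the cisplatin list, and 3 (12.5%) held a share lower by over 1.5 times. The lower ones were chromosomes 17, 19 and 11. Chromosome 19 held 30 pemetrexed and 123 cisplatin peaks, or 3.25% of the pemetrexed list (2.20 to 4.60%) and 6.81% of the cisplatin list (5.69 to 8.07%), with an odds ratio of 0.460 (0.295 to 0.696). Chromosome 17 held 36 and 143 peaks, or 3.90% and 7.91% (odds ratio 0.472, 0.315 to 0.691). Chromosome 11 held 37 and 110 peaks, or 4.004% and 6.09% (odds ratio 0.644, 0.427 to 0.951).

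The higher ones were chromosomes 18, 8, 10, 13 and Y. Chromosome 18, a gene-poor chromosome, was the 1 autosome of 22 with more pemetrexed than cisplatin peaks, 24 against 21, and held 2.60% of the pemetrexed list (1.67 to 3.84%) and 1.16% of the cisplatin list (0.721 to 1.77%), with an odds ratio of 2.27 (1.20 to 4.31). Chromosome 8 had 58 and 64 peaks, an odds ratio of 1.82 (1.24 to 2.67). Chromosome 10 had 60 and 70, an odds ratio of 1.72 (1.19 to 2.49). For chromosome 13, with 23 and 28 peaks, the interval of the odds ratio of 1.62 reached from 0.887 to 2.94. Chromosomes 16 and 22 are gene-rich as well, and there the shares stayed within 1.5 times of each other (odds ratios 1.04, 0.699 to 1.52, and 0.798, 0.466 to 1.33).

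**Figure D2:**
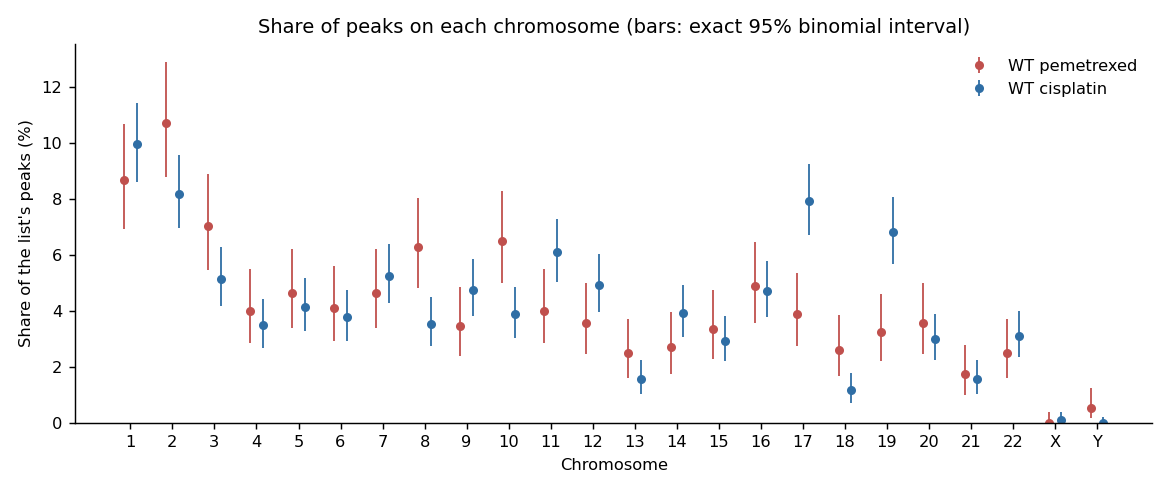
Share of each WT list's peaks on each chromosome in percent, with exact 95% binomial intervals as bars, pemetrexed in red and cisplatin in blue. The cisplatin share is the higher one on chromosomes 11, 17 and 19, and the pemetrexed share on chromosomes 8, 10 and 18; the intervals of the lists do not overlap on chromosomes 8, 10, 17 and 19.

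Chromosome X held 0 of 924 pemetrexed peaks, which allows a share of up to 0.325% at 3 counts, and 2 of 1807 cisplatin peaks (chrX:50162894-50163480 and chrX:53129843-53130251). The KO lists had few peaks there too, 2 of 5278 after pemetrexed and 6 of 4570 after cisplatin, so the low count is common to all 4 lists. Chromosome Y held 5 pemetrexed and 0 cisplatin peaks. A count of 0 of 1807 allows a share of up to 0.166% at 3 counts. The pemetrexed share was 0.541%, and the lower end of its interval, 0.176 to 1.26%, is close to that limit, so the size of the difference is not fixed by these counts. In the KO lists the order on chromosome Y was the other way, with 0 pemetrexed and 24 cisplatin peaks. The WT pemetrexed peaks on chromosome Y were chrY:10605201-10605658, chrY:12142466-12143528, chrY:12153448-12153980, chrY:57236260-57236936 and chrY:57278316-57278728. The last pair stands at the far edge of the 30.02 Mb of the long arm where no list had a peak, a part known as constitutive heterochromatin.

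Grouped by gene density, a grouping made with the counts known, chromosomes 16, 17, 19 and 22 held 14.6% of the placed pemetrexed peaks (134 of 916, 12.4 to 17.1%) and 22.5% of the placed cisplatin peaks (407 of 1805, 20.6 to 24.5%), with an odds ratio of 0.589 (0.472 to 0.732). The gene-poor chromosomes 4, 13 and 18 held 9.17% (84 peaks, 7.38 to 11.2%) and 6.20% (112 peaks, 5.14 to 7.42%), with an odds ratio of 1.53 (1.12 to 2.07). Chromosome 4, with 37 and 63 of these peaks, had an odds ratio of 1.155 (0.742 to 1.776). In this group only chromosome 18 had an interval above 1, so the group value does not describe each of its members. The interval of the group ratio reached below 1 with peaks of at least 600 bp alone (1.46, 0.885 to 2.36).

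Chromosome ends held a smaller share of the pemetrexed list. Within 5 Mb of an outermost covered position (only the long-arm one for the acrocentric chromosomes 13, 14, 15, 21 and 22) lay 11.9% of pemetrexed peaks (109, 9.87 to 14.2%) and 17.5% of cisplatin peaks (315, 15.7 to 19.3%), with an odds ratio of 0.639 (0.501 to 0.811). At the first positions the shares were 4.91% and 8.20% (odds ratio 0.579, 0.401 to 0.822). At the last positions they were 6.99% and 9.25%, and the interval of the odds ratio of 0.737 just reached 1 (0.537 to 1.001). Without chromosomes 16, 17, 19 and 22 the odds ratio within 5 Mb of either end was 0.754 (0.570 to 0.993). The ratio thus moved towards 1, while its interval stayed just below 1. The end measure is therefore only partly separate from the difference on those chromosomes.

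Towards parts of chromosomes that hold few peaks the order turned. On each chromosome the longest stretch with no peak in any of the 4 lists was found; it includes the large heterochromatic blocks of chromosomes 1 (23.2 Mb), 9 (28.2 Mb), 16 (9.83 Mb) and Y (30.02 Mb), but on other chromosomes it need not lie at the centromere. Within 2 Mb of such a stretch lay 5.68% of pemetrexed peaks (52, 4.27 to 7.38%) and 2.55% of cisplatin peaks (46, 1.87 to 3.39%), with an odds ratio of 2.30 (1.504 to 3.53). Within 0.1 Mb the counts were 27 and 9 (odds ratio 6.06, 2.75 to 14.7). These counts include the peaks that bound the stretches, which touch them by definition. No value without the bounding peaks was computed at 0.1 Mb, so nothing is concluded from this ratio. Chromosome 16 alone gave 14 of the 52 pemetrexed peaks and 3 of the 46 cisplatin peaks. The stretches are bounded by peaks of the same lists, so the measure is not independent of them. Within 2 Mb, without the bounding peaks and without chromosome 16, the odds ratio was 1.48, with an interval from 0.870 to 2.50. On chromosomes 1, 9, 16 and Y alone, with the bounding peaks kept, it was 6.02 (2.47 to 16.2, 20 and 8 peaks). Chromosome 16 gave 14 of those 20 pemetrexed peaks and 3 of those 8 cisplatin peaks, so this value rests mainly on 1 chromosome.

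Unplaced contigs, pieces of the build known to belong to a chromosome but with no position on it, held 8 pemetrexed peaks (0.866%, 0.375 to 1.70%) and 2 cisplatin peaks (0.111%, 0.0134 to 0.399%). Of the 8, 5 lay on contigs of chromosome 9, with widths from 631 to 827 bp.

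Pemetrexed peaks stood further apart than cisplatin peaks. The median distance to the nearest peak of the same list was 862.8 kb after pemetrexed (771.8 to 933.1 kb, quartiles 316.2 and 1827 kb) and 234.2 kb after cisplatin (209.4 to 256.6 kb, quartiles 77.5 and 674.9 kb). The longer list has closer peaks for its number alone, with a mean spacing of 1565 kb against 3084 kb. Divided by the mean spacing of the list on the same chromosome, the median distance was 0.292 after pemetrexed and 0.182 after cisplatin. Within 0.1 of the mean spacing, 25.1% of pemetrexed peaks (22.3 to 28.1%) and 34.9% of cisplatin peaks (32.7 to 37.2%) had another peak of their list, with an odds ratio of 0.625 (0.521 to 0.750), against 0.335 (0.266 to 0.418) at a fixed 100 kb. At 10 kb the shares were 3.71% and 4.16%, and the odds ratio of 0.889 had an interval that held 1 (0.570 to 1.36).

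**Figure D3:**
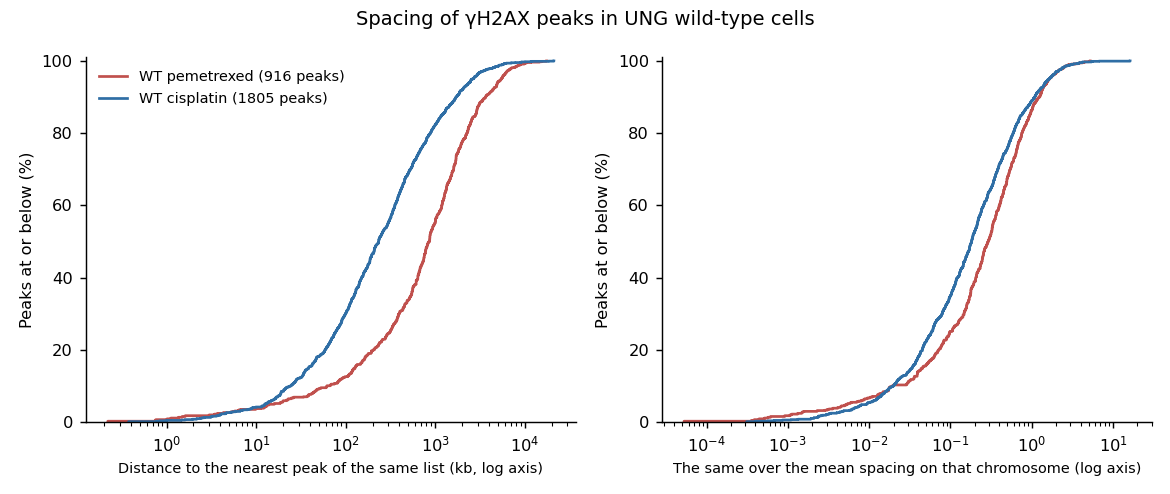
Percent of peaks of each WT list whose nearest peak of the same list lies at or below a distance, in kb (left) and as a fraction of the list's mean spacing on that chromosome (right), both on a log axis. The cisplatin curve runs to the left of the pemetrexed curve over most of the range and the curves meet below about 10 kb.

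Runs of peaks, in which each neighbour lay within 100 kb, were few after pemetrexed. The 916 placed pemetrexed peaks formed 849 regions, of which 801 were single peaks, 38 were pairs and 10 held 3 peaks or more. The 1805 cisplatin peaks formed 1490 regions, with 1263 single peaks, 168 pairs and 59 of 3 or more. Regions of 4 peaks or more numbered 3 and 19. The longest run by number was a pemetrexed one, with 10 peaks, and the largest cisplatin run held 7.

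That pemetrexed run spanned 69.5 kb at chr16:44943249-45012734, at the edge of the heterochromatic block of the long arm. Its 10 peaks were 371 to 1518 bp wide with a median of 775.5 bp, above the median of the list, and it held 1 WT cisplatin peak and 0 peaks of either KO list. The next pemetrexed runs were 4 peaks in 51.4 kb on chromosome 8, 4 peaks at chr10:38830246-38922581, 3 peaks at chr7:61381475-61390663 and 3 peaks at chr22:15232115-15241897. The last 2 were the shortest of 7 runs with 3 peaks. From general knowledge of the map, these 5 runs lie beside centromeres, while the other five with 3 peaks, on chromosomes 1, 3, 8, 9 and 19 and 28.1 to 102.4 kb long, lie on chromosome arms. The chromosome 10 run held 7 KO cisplatin peaks, and those on chromosomes 8 and 22 held 1 each. None of these 5 held a KO pemetrexed peak, and of all 10 pemetrexed runs of 3 peaks or more 1 did, at chr19:8428596-8519416. A KO cisplatin peak was present in 4 of the 10.

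The 59 cisplatin runs of 3 peaks or more were 22.96 to 296.1 kb long with a median of 106.5 kb, and the 10 pemetrexed ones 9.19 to 102.4 kb with a median of 58.5 kb. A KO pemetrexed peak was present in 40 of the 59 (67.8%), a KO cisplatin peak in 34 (57.6%) and a WT pemetrexed peak in 9. Of all placed peaks, 41.8% of WT cisplatin and 20.1% of WT pemetrexed peaks had a KO pemetrexed peak within 100 kb. For a KO cisplatin peak within 100 kb these shares were 51.1% and 35.6%. The 5 cisplatin runs with the most peaks were 7 peaks at chr17:74241031-74537089, 6 at chr12:119032871-119166310, 5 at chr14:104728018-104854019, 5 at chr12:123593314-123733318 and 5 at chr19:3506698-3710958, the 3 with 5 peaks being the shortest of 5 such runs. The other two were both on chromosome 19, and 1 of them held a WT pemetrexed peak. The 5 runs named lie on chromosome arms, and held 28 cisplatin peaks, 0 WT pemetrexed peaks, 30 KO pemetrexed peaks and 10 KO cisplatin peaks. The 5 pemetrexed runs held 24 pemetrexed peaks, 1 WT cisplatin peak, 0 KO pemetrexed peaks and 9 KO cisplatin peaks. These pemetrexed runs were 9.19 to 92.3 kb long and the cisplatin ones 126 to 296.1 kb. The counts are not scaled by length, so they do not compare the drugs at equal length.

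**Figure D4:**
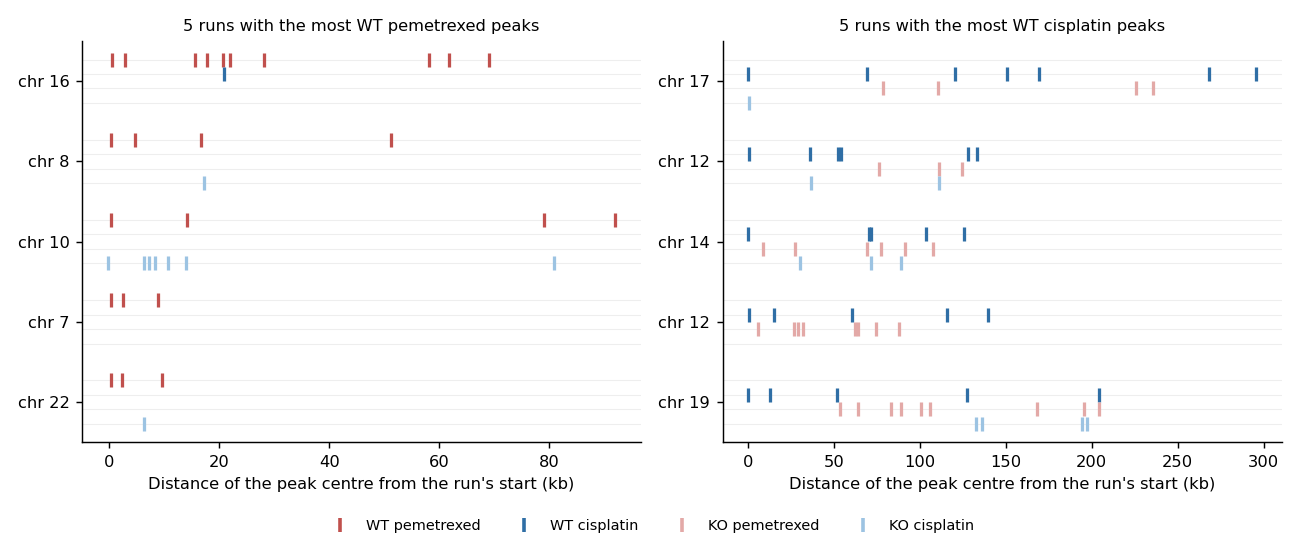
Centres of peaks of all 4 lists (1 row per list, colours in the key) inside the 5 runs with the most WT pemetrexed peaks (left) and the most WT cisplatin peaks (right), by distance from the start of the run in kb, with ties in peak number taken by the shorter run. The left panel holds 0 KO pemetrexed marks and the right panel holds 30 beside 0 WT pemetrexed marks. The runs on the left are 9.19 to 92.3 kb long and those on the right 126 to 296.1 kb.

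The longest stretch of autosome without a peak of 1 WT list was 28.6 Mb at chr9:37965350-66583468 for pemetrexed, with 1 cisplatin, 3 KO cisplatin and 4 KO pemetrexed peaks. For cisplatin it was 43.3 Mb at chr3:65940944-109233939, with 6 pemetrexed, 14 KO cisplatin and 0 KO pemetrexed peaks. Each of these contains the longest stretch of its chromosome that is empty in all 4 lists. Leaving aside stretches that contain such a part, the longest was 23.3 Mb at chr5:127186593-150477456 for pemetrexed, where the cisplatin list had 25 peaks, the KO cisplatin list 54 and the KO pemetrexed list 42. For cisplatin it was 22.95 Mb at chr13:50506865-73455934, where the pemetrexed list had 3 peaks, the KO cisplatin list 8 and the KO pemetrexed list 0.

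In windows of 1 Mb, 25.7% of 2847 held a pemetrexed peak and 35.1% held a cisplatin peak. Of the 731 windows with a pemetrexed peak, 331 also held a cisplatin peak, or 45.3% (41.6 to 49.0%), above the 35.1% of all windows. Away from chromosomes 16, 17, 19 and 22 the same shares were 41.8% and 32.8%. In windows of 100 kb, 3.08% of 28272 held a pemetrexed peak, 5.79% held a cisplatin peak, and 10% of those with a pemetrexed peak also held a cisplatin peak (87 of 870, 8.09 to 12.2%). Counts per window were only weakly related between the lists, with Pearson's r of 0.16 over the 2847 windows and 0.04 over the 28272.

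The windows with the most peaks of each list had 1 place in common. It was chr19:50000001-51000000, with 5 pemetrexed, 9 cisplatin, 21 KO pemetrexed and 18 KO cisplatin peaks. Within it no pemetrexed peak met a cisplatin peak, and the 5 pemetrexed peaks lay 12.1, 23.96, 49.2, 85.2 and 101.9 kb from the nearest one. The window with the most pemetrexed peaks was chr16:44000001-45000000, with 7 pemetrexed and 1 cisplatin peak. After it came 4 peaks at chr1:170000001-171000000 and 4 at chr10:38000001-39000000, with 1 and 0 cisplatin peaks, and 3 at chr1:230000001-231000000, the first of 25 windows with that number. For cisplatin the window chr14:104000001-105000000 led with 10 peaks and 1 pemetrexed peak, and those at chr19:1000001-2000000 and chr19:52000001-53000000 held 9 peaks, with 0 and 1 pemetrexed peaks. The window chr11:68000001-69000000 held 8 cisplatin and 0 pemetrexed peaks.

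Peaks of both drugs at the same place were rare. Of the 916 placed pemetrexed peaks, 10 met a cisplatin peak by at least 1 bp (1.09%, 0.525 to 1.998%), and these 10 were 0.554% of the cisplatin list (0.266 to 1.02%). The shared bases came to 4821 bp, 0.870% of the pemetrexed and 0.397% of the cisplatin bases, while the cisplatin list covers 0.0430% of the span. Within 10 kb of a cisplatin peak lay 44 pemetrexed peaks (4.80%, 3.51 to 6.39%) and within 100 kb 165 (18.0%, 15.6 to 20.7%). The median pemetrexed peak was 526 kb from the nearest cisplatin peak (447.6 to 602.3 kb).

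The 10 places lay on 7 chromosomes, and 9 of them were matched by 50% or more of both peaks. The closest pairs in extent were at chr3:49384250-49384890, where the 640 bp pemetrexed peak lay wholly inside the 691 bp cisplatin peak and both end at the same base, and at chr17:39542814-39543764, where peaks of 950 and 921 bp shared 846 bp. Peaks shared 565 bp at chr2:86449219-86449928, 544 bp at chr3:137656868-137657434, 551 bp at chr13:49724769-49725322 and 420 bp at chr13:113773878-113774507. On chromosome 16 the pair shared 374 bp at chr16:44963677-44964275, inside the run of 10 pemetrexed peaks. On chromosome 17 the 434 bp pemetrexed peak at chr17:1058240-1058674 lay wholly inside a cisplatin peak of 572 bp, and on chromosome 21 the pair at chr21:36479531-36480099 shared 439 bp. The chromosome 9 pair, at chr9:134888794-134889361, touched over only 8 bp.

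The shared pemetrexed peaks were 434 to 950 bp wide with a median of 583 bp, and the cisplatin ones 374 to 921 bp with a median of 660.5 bp, next to medians of 585 and 623 bp for the whole lists. The cisplatin peak was the wider one at 6 of the 10. A KO pemetrexed peak was present at 1 place, chr17:1058240-1058674, and a KO cisplatin peak at 0, where 2.51% of all pemetrexed and 5.32% of all cisplatin peaks met a KO peak. A KO cisplatin peak lay 1.13 kb from the pair at chr17:39542814-39543764. Of the 10 places, 3 lay on chromosomes 16 and 17 and 3 within 5 Mb of a covered end.

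**Figure D5:**
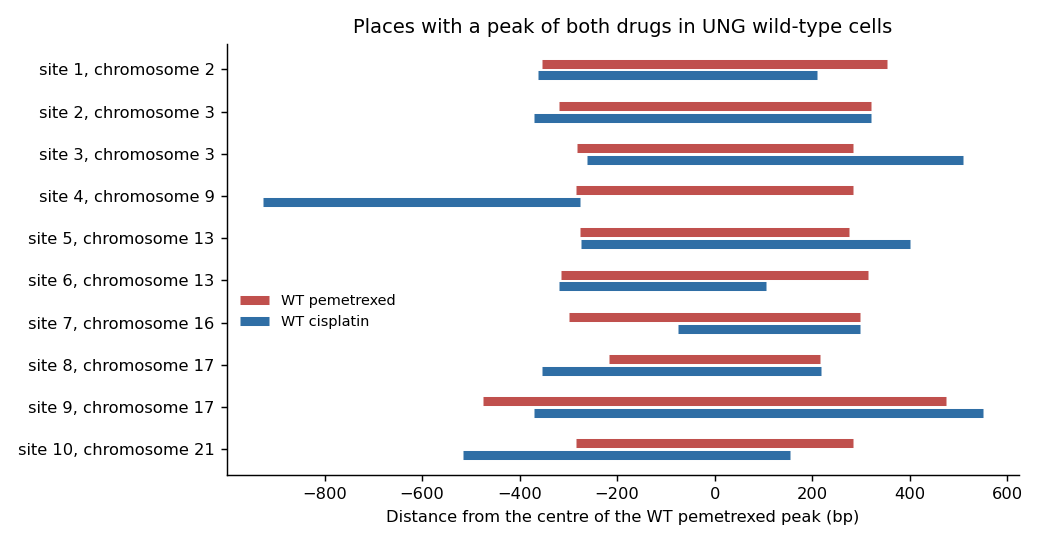
The 10 places with a peak of both drugs, each drawn as the extent of the WT pemetrexed peak (red) and the WT cisplatin peak (blue) in bp from the centre of the pemetrexed peak. At 9 places the bars cover each other over most of their length, and at the chromosome 9 place they share 8 bp.

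The KO lists come from other libraries. The WT pemetrexed peaks stood further from KO peaks than the WT cisplatin peaks did. A KO peak of either drug met 23 of 916 pemetrexed peaks (2.51%, 1.60 to 3.74%) and 96 of 1805 cisplatin peaks (5.32%, 4.33 to 6.46%). For scale, the KO pemetrexed list covers 0.317% of the span and the KO cisplatin list 0.141%, so few meetings are possible by place alone. Counting all lists, 96.5% of pemetrexed peaks (884, 95.1 to 97.6%) and 94.2% of cisplatin peaks (1700, 93.0 to 95.2%) met no peak of any other list. Cisplatin peaks that met a KO peak had a median width of 704 bp and 54.2% of them lay on chromosomes 16, 17, 19 and 22, against 621 bp and 20.8% for those that met no list. For pemetrexed the widths were 597 and 584 bp and the shares 43.5% (10 of 23 peaks) and 13.8%. Of the KO lists themselves, 43.3% of the placed pemetrexed and 24.4% of the placed cisplatin peaks lay on those chromosomes. A wider peak also meets another list more readily for its width alone.

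The surroundings showed the same order at a larger scale. Within 500 kb on either side, 60.0% of WT pemetrexed peaks (56.8 to 63.2%) had 0 KO pemetrexed peaks, against 34.6% of WT cisplatin peaks (32.4 to 36.9%). The share with 10 or more was 12.1% (10.1 to 14.4%) for WT pemetrexed and 28.4% (26.3 to 30.5%) for WT cisplatin. For KO cisplatin peaks the shares with 0 were 29.4% (26.4 to 32.4%) and 14.7% (13.1 to 16.4%). The nearest KO pemetrexed peak was at a median of 895 kb from a WT pemetrexed peak (730.9 to 1163 kb) and 181.1 kb from a WT cisplatin peak (155.2 to 212.8 kb). The WT cisplatin peaks thus lay nearer to the KO pemetrexed peaks than the WT pemetrexed peaks did. For the nearest KO cisplatin peak the medians were 192.9 kb (164.6 to 235.1 kb) and 93.7 kb (82.8 to 104.0 kb). The labels name no control library for the calling of any list.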

How the data were processed

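γH2AX ChIP-seq peaks of DLD1 cells were read from the lists deposited by the authors, whose chrom, start and end columns, per the file headers, give positions in bp and no counts, heights or scores. Per the submitters' processing notes, Bowtie (no version) and MACS 1.4 were used with build hg18. The labels used here state no control, threshold or filter. Each sample's group came from its title.

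Peaks were analysed with Python 3.11.15, pandas 2.3.3, numpy 2.4.6 and scipy 1.17.1. Shares have exact binomial 95% intervals, ratios of peak numbers and odds ratios have exact conditional intervals, and medians have order-statistic intervals. Contigs entered numbers, widths and shares per chromosome but not spacing, overlap or windows. A fold of 1.5 called a chromosome share, and 3 counts set the limit for a count of 0. Functions were tested on simulated data. Named regions were the 5 widest peaks, the 5 runs (ties: shortest) and the 5 windows with the most peaks per list, all shared places and the longest empty stretches. Members, measures and rules were chosen with earlier results of these data known. No sequence is printed, as no genome of this build was used.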

Additional observations from a re-analysis of the deposited data

Results flagged for a closer look

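The drugs differed in opposite directions in the WT and the KO libraries for each of 7 measures. The difference between genotypes was not tested for any of them, with 1 library per group. Pemetrexed over cisplatin peak numbers gave 0.511 in WT and 1.155 in KO cells. The pemetrexed median width minus the cisplatin one was -38 bp in WT and 358.5 bp in KO. The odds ratio of lying on chromosomes 16, 17, 19 or 22 was 0.589 in WT and 2.37 in KO, and that for chromosomes 4, 13 or 18 was 1.53 and 0.537. Within 5 Mb of a covered end it was 0.639 and 2.49, and within 2 Mb of the longest stretch without peaks 2.30 and 0.552. For having another peak of the same list within 100 kb it was 0.335 and 5.70. Within 0.1 of the mean spacing in place of 100 kb, the last pair was 0.625 (0.521 to 0.750) and 3.61 (3.32 to 3.93). The stretches without peaks are defined by the same 4 lists. Without the bounding peaks and chromosome 16, the WT odds ratio at the stretches was 1.48, with an interval that held 1 (0.870 to 2.50). The measures come from the same peaks and are not independent of each other.

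Outside the placed chromosomes, 8 WT pemetrexed peaks lay on unplaced contigs, above the 3 counts used as a limit, against 2 WT cisplatin peaks.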

How the results depend on the processing

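Of 34 alternative values for 9 results, 23 stayed within the interval of the value given, 11 moved outside it and 0 turned direction. For covered bases, which have no interval of their own, the relative width of the interval of peak numbers was used. The ratio of peak numbers moved to 0.570 with peaks within 100 kb joined, to 0.307 with peaks of at least 600 bp alone and to 0.559 without chromosomes 16, 17, 19 and 22, where the ratio of covered bases was 0.507 in place of 0.460. The odds ratio at the longest stretches without peaks moved to 1.38 at 5 Mb, to 6.02 on chromosomes 1, 9, 16 and Y alone, and to 1.48 without the bounding peaks and chromosome 16. The last settings, with those that left out chromosome 16 alone or the bounding peaks alone, were chosen after seeing the data. The odds ratio of another peak nearby moved to 0.889 at 10 kb and to 0.625 at 0.1 of the mean spacing. Shared places went from 10 to 44 within 10 kb and to 165 within 100 kb. The causes were not tested. A stricter score could not be applied, because the files give none. No paired analysis was possible because there is only 1 library for each drug, so none could be left out.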
